A study of Mus musculus with 21 samples.

Results

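Hearts of mice that had all received doxorubicin (DOX, an anthracycline that blocks topoisomerase II) were compared between mice with and without a 4T1 tumor. 4T1 is a mouse breast cancer cell line that forms tumors after injection and releases factors that expand granulocytes in the host. The Tb-DOX group (tumor and DOX, 5 libraries) was set against the DOX group (DOX and no tumor, 5 libraries), which are 10 of the 21 libraries of the series. The other groups are Control (no tumor and no DOX, 5 libraries) and Tb (tumor and no DOX, 6 libraries). They were used to ask whether the tumor changed the same genes without DOX. The study describes the mice without DOX as given normal saline. According to the methods of the study, 4T1 cells were injected under the skin and DOX was given into the peritoneum at 5 mg/kg in 3 weekly injections. The strain, sex and age of the mice are not given in the sources used here. The sample labels name 4T-1 as the source of every library, whereas the study describes hearts, and the defining cardiomyocyte markers were abundant in all 10 libraries (8 markers summed, 13500 to 20600 FPKM). FPKM, counts scaled for exon length and library size, is printed here with TMM scaling, so that levels and fold changes are on the same footing. In bulk tissue, fewer cells of a type and less RNA per cell cannot be told apart. Nothing in the labels says that each library came from a separate mouse, so p-values measure the spread between these libraries.

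Neutrophils are short-lived granulocytes that leave the bone marrow under the control of granulocyte colony-stimulating factor and carry antimicrobial proteins in granules. They reach tissue by rolling on selectins and holding on through beta2 integrins. Their granule genes are switched on in the marrow by C/EBP factors and PU.1, and ripe cells carry the messages for S100A8 and S100A9 in large amounts. A heart holds few of them in health. The other cells read here are cardiomyocytes with their sarcomeres, endothelial cells, fibroblasts with their collagens, and resident macrophages.

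The promoters of 3 neutrophil genes are shown as examples from a list whose tested members all rose in Tb-DOX hearts, as given below. Each of the 3 holds the C/EBP letters, which most matched promoters of that list lack. They are RefSeq sequences of build GRCm38.p6, from 250 bases before to 50 after the start, on the strand of the gene. Capitals mark the letters TTGCNNAA (C/EBP) or GAGGAA (PU.1) on either strand. The regions are S100a9 at chr3:90695672-90695971 (minus strand), Ngp at chr9:110419558-110419857 (plus strand) and Ltf at chr9:111019042-111019341 (plus strand).
S100a9: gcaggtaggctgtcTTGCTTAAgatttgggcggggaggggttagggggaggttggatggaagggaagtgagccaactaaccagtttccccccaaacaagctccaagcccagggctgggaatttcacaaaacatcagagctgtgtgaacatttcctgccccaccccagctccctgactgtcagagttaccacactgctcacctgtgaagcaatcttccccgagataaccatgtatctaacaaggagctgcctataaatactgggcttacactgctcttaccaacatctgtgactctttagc
Ngp: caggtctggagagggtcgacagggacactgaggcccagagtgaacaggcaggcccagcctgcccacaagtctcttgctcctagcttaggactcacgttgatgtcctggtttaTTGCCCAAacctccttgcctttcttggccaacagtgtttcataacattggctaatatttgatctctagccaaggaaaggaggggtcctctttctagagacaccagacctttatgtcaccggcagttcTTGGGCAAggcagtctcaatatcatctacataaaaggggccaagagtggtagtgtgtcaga
Ltf: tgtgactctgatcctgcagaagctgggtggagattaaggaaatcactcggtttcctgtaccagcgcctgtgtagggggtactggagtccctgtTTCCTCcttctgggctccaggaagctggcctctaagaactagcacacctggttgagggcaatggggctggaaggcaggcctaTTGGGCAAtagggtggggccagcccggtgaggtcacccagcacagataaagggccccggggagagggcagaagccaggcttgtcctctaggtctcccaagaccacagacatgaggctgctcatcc
The C/EBP letters stood in 7 of 17 matched promoters of the neutrophil list (41.2%) and in 8.23% of the 9576 promoters matched among all genes tested. The PU.1 letters stood in 10 of those 17 (58.8%) and in 26.9% of all. Among the genes called higher in Tb-DOX the shares were 14.5% and 47.2% of 400 promoters. Among those called lower they were 8.6% and 23.7% of 93 promoters. A match to these letters is a description of the sequence and was not tested as a binding site.

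In the hearts of Tb-DOX mice, 755 of 13863 genes tested (5.45%) were differentially expressed (DEGs, edgeR adjusted p below 0.05 and at least 2-fold) against DOX hearts. Of these, 561 were higher (4.05% of genes tested) and 194 were lower (1.4%). Without the minimum fold, 1289 genes passed the test higher (9.3%) and 1076 lower (7.76%), so the small shifts were more evenly split than the large ones. Over all genes tested the log2 fold change had a median of -0.01, and 88 genes were at least 16-fold higher against 8 at least 16-fold lower. The DOX and Tb-DOX libraries did not overlap for 1984 genes (14.3%), higher in Tb-DOX for 1053 (7.6%) and lower for 931 (6.72%). Of the 561 higher DEGs, 259 had a mean below 0.5 FPKM in DOX hearts, so they were above the limit for testing only through the Tb-DOX libraries.

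Genes of neutrophils and other leukocytes held the smallest p-values among the higher genes. In DOX hearts S100a9 (a calcium-binding protein of neutrophils, GRCm39 chr3:90599939-90603028) was at 10.8, 4.71, 49.4, 19.5 and 5.73 FPKM, and in Tb-DOX hearts at 1780, 2110, 1500, 2980 and 717 FPKM. The lowest Tb-DOX library was far above the highest DOX library. The fitted difference was 99.7-fold (log2 6.64, SE 0.681, edgeR adjusted p = 1.24e-06), and log2 7.48 without DOX 3, its highest DOX library. Ltf (lactoferrin, an iron-binding granule protein, GRCm39 chr9:110848339-110871835) was at 0.0389, 0, 0.0571, 0.0692 and 0 FPKM in DOX hearts and at 27.8, 30.6, 20, 31.6 and 8.46 FPKM in Tb-DOX hearts (log2 9.36, SE 0.737, edgeR adjusted p = 6.82e-08). Csf3r, the receptor for granulocyte colony-stimulating factor (GRCm39 chr4:125918343-125938233), had the smallest p of all genes tested and rose from 0.594 ± 0.303 to 27.3 ± 6.41 FPKM (mean ± SD, n = 5 each, log2 5.50, SE 0.395, edgeR adjusted p = 3.44e-08). For each of these 3 genes, all DOX libraries lay below all Tb-DOX libraries, and the exact permutation p was 0.00794, the smallest that 5 against 5 allows.

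**Figure D1:**
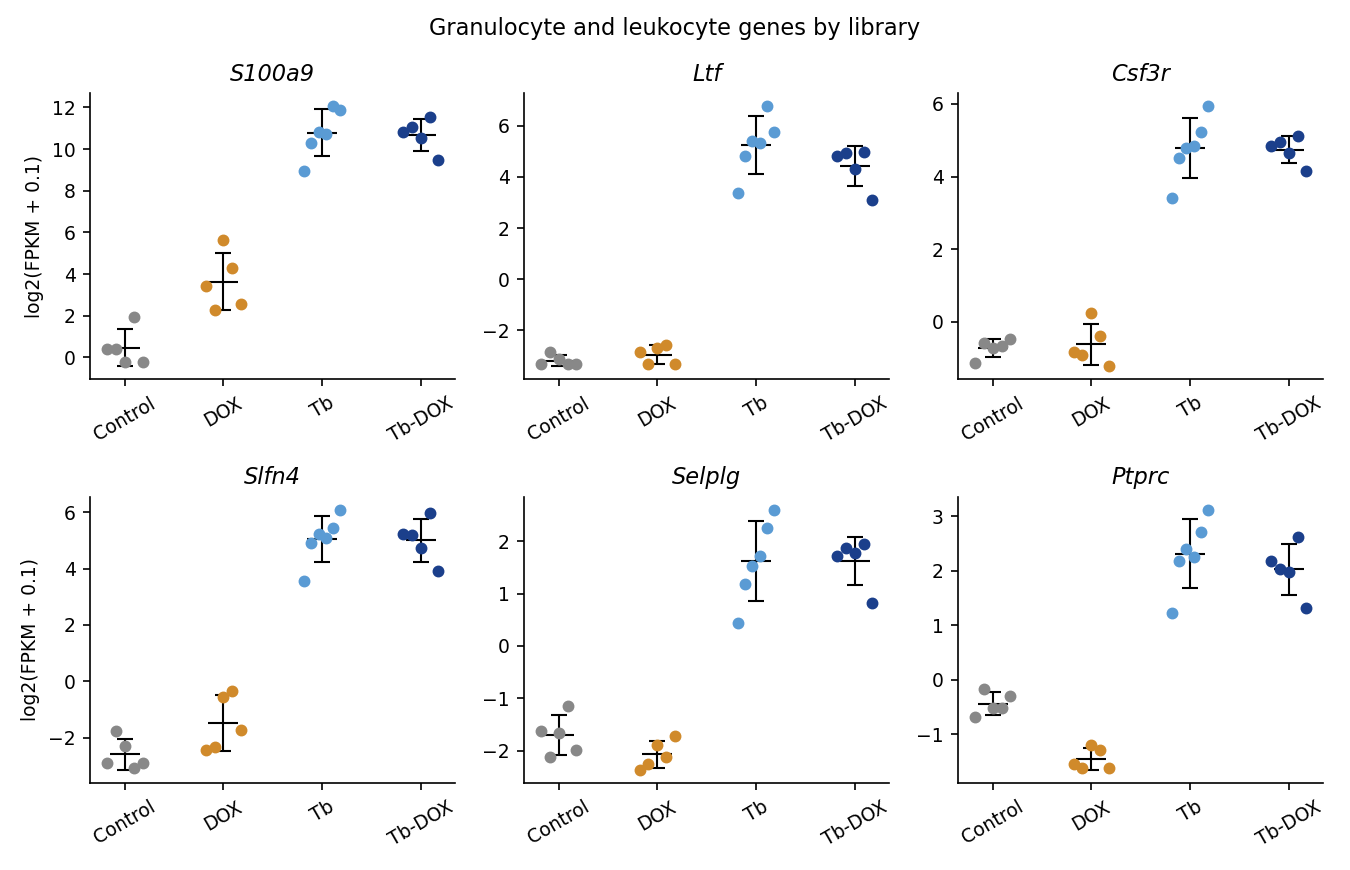
Levels of 6 granulocyte and leukocyte genes as log2(FPKM + 0.1) in each library of the 4 groups (points), with the mean and SD of each group (bars). In every panel the 5 Tb-DOX libraries lie above the 5 DOX libraries, and Tb-DOX 5 is the lowest of its group.

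Of 22 genes listed for neutrophil granules and surface, 19 were tested and each of them was a higher DEG. They ran from log2 2.19 (Hdc, which makes histamine) to 9.36 (Ltf). Over all genes tested, 4.05% were higher DEGs. Because 8 of the 19 had a DOX mean below 0.5 FPKM, their presence among the genes tested rests on the Tb-DOX libraries, and the count is given as a description. The remaining 3 were Elane and Mpo, granule enzymes of marrow precursors that were below the limit with means of 0.138 and 0.198 FPKM in Tb-DOX hearts, and BC100530, which had no row in the table under this symbol. Mpo had 0 counts in all DOX libraries and 54 in Tb-DOX, and Elane had 7 and 11.

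By role, the granule proteins rose together. Ngp, a granule protein of the cathelicidin-like family, went from 0 to 2.36 FPKM in DOX hearts to 51.7 to 322 FPKM in Tb-DOX hearts (log2 7.71). Camp, the antimicrobial peptide cathelicidin, rose by log2 6.40, and the collagenase Mmp8 and gelatinase Mmp9 rose by log2 5.48 and 5.08. Ly6g, the surface marker used to sort mouse neutrophils, had 1 count in all DOX libraries and 482 in the Tb-DOX libraries, a ratio of 398 (95% interval 71.2 to 15800, counting error only). Trem3, a receptor of myeloid cells, had 0 counts in DOX and 224 in Tb-DOX, at least 61.7-fold higher against a limit of 3 counts over the group. The stefins Stfa2 and Stfa3, inhibitors of cysteine proteases, rose by log2 7.54 and 8.31, and Stfa1 went from 0 to 63 counts (at least 17.4-fold). Stefin genes are close copies of each other, and reads shared between them could have been split by the counting.

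Several genes expressed across leukocytes were also higher, most of them named for their small p. Selplg, the ligand of P-selectin, rose by log2 4.45 (SE 0.400, edgeR adjusted p = 3.36e-07), Itgal, the alpha chain of the integrin LFA-1, by 4.46, and Itgb2, its beta chain, by 3.50. Ptprc, the pan-leukocyte marker CD45, went from 0.226 to 0.340 FPKM in DOX hearts to 2.38 to 6.07 FPKM in Tb-DOX hearts (log2 3.93). Lcp1, the actin bundler of leukocytes, rose by log2 3.95, Spi1, which encodes PU.1, by 3.55, and Slfn4, an interferon-responsive gene of myeloid cells, by 6.76. F630028O10Rik, an antisense transcript, rose by log2 3.73, and without strand information its reads cannot be told apart from those of an overlapping gene. Mapk13, a p38 kinase, had 1 count in DOX and 516 in Tb-DOX (ratio 426, 95% interval 76.2 to 16900).

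The level of this signature varied from library to library in a shared way. The sum of 8 neutrophil markers was 9.41 to 84.9 FPKM in DOX and 1240 to 5300 FPKM in Tb-DOX, with Tb-DOX 4 highest (5300) and Tb-DOX 5 lowest (1240). It was 1.52 to 4.98 FPKM in Control and 821 to 7620 FPKM in Tb hearts, so the range with a tumor was wide with and without DOX. In 336 of the 561 higher DEGs (59.9%), Tb-DOX 4 was the highest and Tb-DOX 5 the lowest of the 5 libraries, against 10.1% of all genes tested. The order of the libraries by neutrophil level thus recurred in many higher DEGs, and its part in the other changes was not tested.

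**Figure D2:**
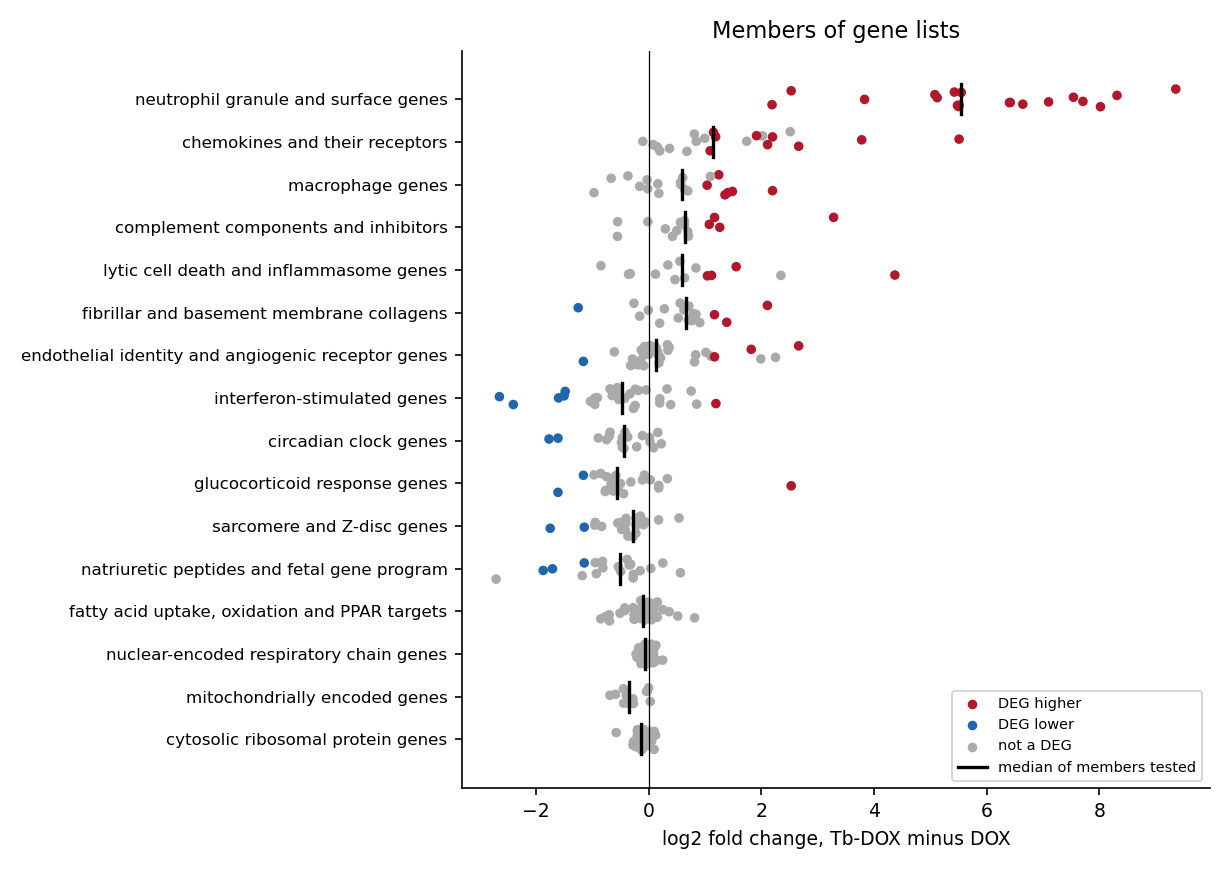
Log2 fold change of Tb-DOX minus DOX (x axis) for each tested member of 16 gene lists (rows), coloured by whether it was a DEG, with the median of each list as a black line. The neutrophil list has its median at 5.55, while the lists for the respiratory chain, ribosomal proteins and fatty acid use lie near 0.

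Some genes of chemotaxis and inflammation were higher too. Of 21 chemokine and receptor genes tested, 11 passed the test higher and 0 lower, with a median log2 fold change of 1.15. Of all genes tested, 9.3% passed higher and 7.76% lower. For 6 of the 21 the DOX mean was below 0.5 FPKM, so the count of 11 is a description, and it was 7 without Tb-DOX 4. Among receptors of myeloid cells, Cxcr2 rose by log2 5.51, Ccr1 by 3.78 and Ccr2, the receptor of recruited monocytes, by 2.20. Cxcl12, the ligand of CXCR4, was at 8.67 to 19.4 FPKM in DOX and 16 to 32.8 FPKM in Tb-DOX hearts (log2 0.84, edgeR adjusted p = 0.00657), and Cxcl16 rose by log2 1.09. Ackr1, a chemokine-binding receptor of venules, went from 0.112 to 0.701 FPKM in DOX to 0.635 to 4.01 FPKM in Tb-DOX (log2 2.66, edgeR adjusted p = 0.0245), and its call was lost without DOX 4 or without Tb-DOX 4.

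Of 14 genes of the inflammasome and lytic cell death tested, 4 passed higher and 1 lower (7 and 0 with library totals). Among all genes tested the shares were 9.3% and 7.76%. A DOX mean below 0.5 FPKM was found for 3 of the 14. Il1b, the cytokine interleukin-1 beta, was at 0.0351, 0.201, 1.51, 0.209 and 0.124 FPKM in DOX hearts and at 8.31, 10.9, 8.49, 10.7 and 6.73 FPKM in Tb-DOX hearts (log2 4.37, SE 0.587, edgeR adjusted p = 2.64e-05). Unlike the granule genes, it was nearly level across the Tb-DOX libraries. Gsdmd, the pore protein that lets interleukin-1 beta out, rose by log2 1.11, and the caspases that cut it, Casp1 and Casp4, by 1.04 and 1.55. Leaving out single libraries ended the Casp1 call in 6 of 10 cases.

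A few acute phase genes were higher. Of 25 tested, 5 passed higher and 0 lower, against 9.3% and 7.76% of all genes tested, and the median was 0.24. The higher count was 8 with only the 10 libraries, 8 with voom and 10 (median 0.55) with DOX 4 and Tb 5 left out. Hp (haptoglobin, which binds free hemoglobin) went from 0.245 to 1.92 FPKM to 12.3 to 55.9 FPKM (log2 5.13), Saa3 (serum amyloid A3) rose by log2 4.79, Orm1 (orosomucoid) had 3 counts in DOX and 194 in Tb-DOX (ratio 53.4, 95% interval 18 to 261), and Lcn2 (lipocalin 2, which binds bacterial siderophores) rose by 2.53. Lcn2 is in the neutrophil list too, and neutrophils also express Hp. Slc40a1, the iron exporter ferroportin, rose from 0.309 to 1.04 FPKM to 2.53 to 4.02 FPKM (log2 2.17, SE 0.254, edgeR adjusted p = 6.37e-06).

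The pentose phosphate pathway makes NADPH for the oxidative burst and for glutathione. G6pdx, its entry enzyme, went from 1.08 to 4.07 FPKM to 5.67 to 15.1 FPKM (log2 2.15, edgeR adjusted p = 0.000177), Tkt (transketolase) rose by log2 1.29, and Pgd by 0.74. In the whole list of 36 glycolysis, glycogen and pentose phosphate genes, 4 passed higher and 3 lower with a median of 0 (5 lower without DOX 3), against 9.3% and 7.76% of all genes tested. The higher count was 10 with library totals or limma on log2(FPKM + 1) and 8 with voom.

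Genes of macrophages and of complement were read next. Of 20 macrophage genes tested, 8 passed higher and 1 lower, with a median of 0.58, against 9.3% and 7.76% of all genes tested. Lyz2 (lysozyme of myeloid cells, neutrophils included) was at 35.1 to 59.0 FPKM in DOX and 75.1 to 186 FPKM in Tb-DOX (log2 1.40, edgeR adjusted p = 1.86e-05). Csf1r (the receptor for macrophage colony-stimulating factor) rose by log2 1.03 and Adgre1 (F4/80) by 1.24, and the Csf1r fold fell just under 2 in 3 fits that left out 1 library. F13a1, coagulation factor XIII of macrophages and platelets, rose by 1.48. The sum of 7 macrophage markers overlapped, at 23.9 to 49.3 FPKM in DOX and 37.0 to 77.2 FPKM in Tb-DOX, and it was 56.3 to 69.8 FPKM in Control. Of 15 complement genes 7 passed higher and 1 lower, beside the same shares of all genes. Without Tb-DOX 4 the numbers passing higher were 4 for complement and 6 for macrophage genes, and with library totals 11 for each. C5ar1, the receptor for the C5a fragment, rose by log2 3.28, Cfp (properdin) by 1.26 and C3 by 1.17. Of the MHC class II list of 10 genes only 3 were tested, and H2-Aa rose by log2 1.20 at levels below 1.5 FPKM, which was no longer called in 6 of 10 cases with a library removed.

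Another group of genes was set apart by the interaction, the tumor effect with DOX minus the tumor effect without DOX. Of all genes tested, 520 passed this test with at least a 2-fold difference (3.75%), 259 positive (1.87%) and 261 negative (1.88%), and 1190 (8.58%) passed it at any size. Of the 561 higher DEGs, 303 (54.0%) were also higher in Tb against Control, which shares no library with the present comparison and in which 3.21% of genes were called higher. For 120 of the 561 the interaction was called (109 positive), a count that was 69 without DOX 3, 74 without DOX 4, 66 with the replicate number as a block and 55 with limma on log2(FPKM + 1). Among the neutrophil genes it was negative for S100a8, S100a9, Retnlg (a resistin-like peptide), Mmp8 and Cxcr2, whose DOX levels without a tumor were above those of Control. For S100a9 the mean was 1.54 FPKM in Control, 18 FPKM in DOX and 2190 FPKM in Tb hearts, and the interaction was -3.87 (edgeR adjusted p = 0.0194). Of the 194 lower DEGs, 1 was also lower in Tb against Control, where 0.101% of genes were called lower, and 98 were called by the interaction, each negative. That count was 57 without DOX 4, 65 without Tb-DOX 1, 60 without DOX 4 and Tb 5, 46 with the block and 42 with limma, and Tb 5 was the highest Tb library in 79.6% of the 98. The interaction holds the same difference that chose the DEGs, so its sign among them is largely set by that choice and these counts are a description. Across all genes the tumor log2 fold changes with and without DOX had a Pearson correlation of 0.518 and a Spearman correlation of -0.0792, a description over genes, which are not independent. Interaction counts were sensitive to single libraries, with 300 calls without DOX 3 and 716 without Tb 1.

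**Figure D3:**
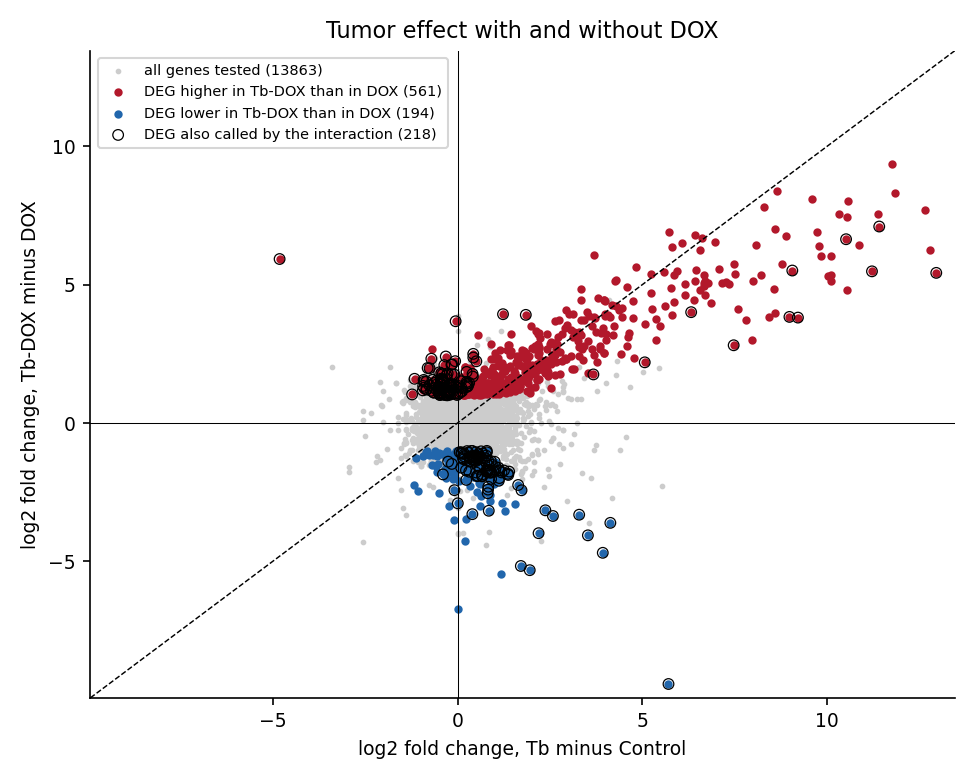
Log2 fold change of Tb minus Control (x axis) against Tb-DOX minus DOX (y axis) for 13863 genes, with DEGs of the latter coloured and DEGs called by the interaction circled. The higher DEGs form a long arm at positive values on both axes and a circled cluster near 0 on the x axis, and the lower DEGs lie below 0 on the y axis with a median of 0.38 on the x axis.

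The genes with the smallest interaction p among DEGs were Mfsd7a, Cd34, Tnp1, Pi16 and 6530402F18Rik, and each had a positive value. Cd34, a sialomucin of endothelial and stromal progenitor cells (GRCm39 chr1:194621127-194643587), was at 8.96, 6.76, 6.82, 5.99 and 7.55 FPKM in DOX and at 17.1, 14.5, 13.8, 18.2 and 12.2 FPKM in Tb-DOX hearts. Its mean was 19.7 ± 1.33 FPKM (SD, n = 5) in Control and 20.3 ± 1.85 FPKM (n = 6) in Tb hearts, so the DOX libraries were the lowest and the Tb-DOX mean lay between. The difference was 2.10-fold with DOX (log2 1.07, SE 0.114, edgeR adjusted p = 1.89e-06), and the interaction was 1.03 on the log2 scale (edgeR adjusted p = 0.00564). Pi16, a peptidase inhibitor of adventitial fibroblasts, went from 0.423 to 2.35 FPKM in DOX to 3.85 to 8.18 FPKM in Tb-DOX (log2 2.23) and averaged 9.96 FPKM in Control and 9.53 FPKM in Tb hearts. Mfsd7a, a membrane transporter, rose by log2 1.6 with DOX against -0.45 without it.

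Vim, Marcks and Lxn, chosen after their values were seen, had positive interactions and DOX levels below Control. Of the 35 endothelial genes 3 had a positive interaction that passed (1 without Tb-DOX 3 and 1 with the replicate number as a block). Over all genes tested, 8.58% passed it in either direction. Vim (vimentin, the intermediate filament of mesenchymal cells) was at 23.5, 12.3, 8.32, 11.5 and 12.8 FPKM in DOX and at 35.3, 31.5, 33.9, 53.8 and 24.4 FPKM in Tb-DOX (log2 1.39, edgeR adjusted p = 8.81e-05, interaction 1.49). The lowest Tb-DOX library was close to the highest DOX library, and Control and Tb averaged 50.3 and 46.6 FPKM. Marcks, a membrane-bound actin regulator, rose by log2 1.01 and Lxn, a carboxypeptidase inhibitor, by 2.09, with interactions of 1.03 and 2.45. 6530402F18Rik, a noncoding transcript, rose by log2 1.05. Tnp1, a nuclear protein of spermatids, had 0 counts in DOX and 39 in Tb-DOX (at least 10.7-fold higher), with 0 in Tb-DOX 1. The sum of 6 germ cell and testis markers was 0.712 to 1.69 FPKM in DOX, 2.72 to 6.11 FPKM in Tb-DOX, 2.85 to 7.50 FPKM in Control and at most 3.18 FPKM in Tb, and Insl3, a hormone of Leydig cells, was part of it (log2 0.99, edgeR adjusted p = 0.0273).

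**Figure D4:**
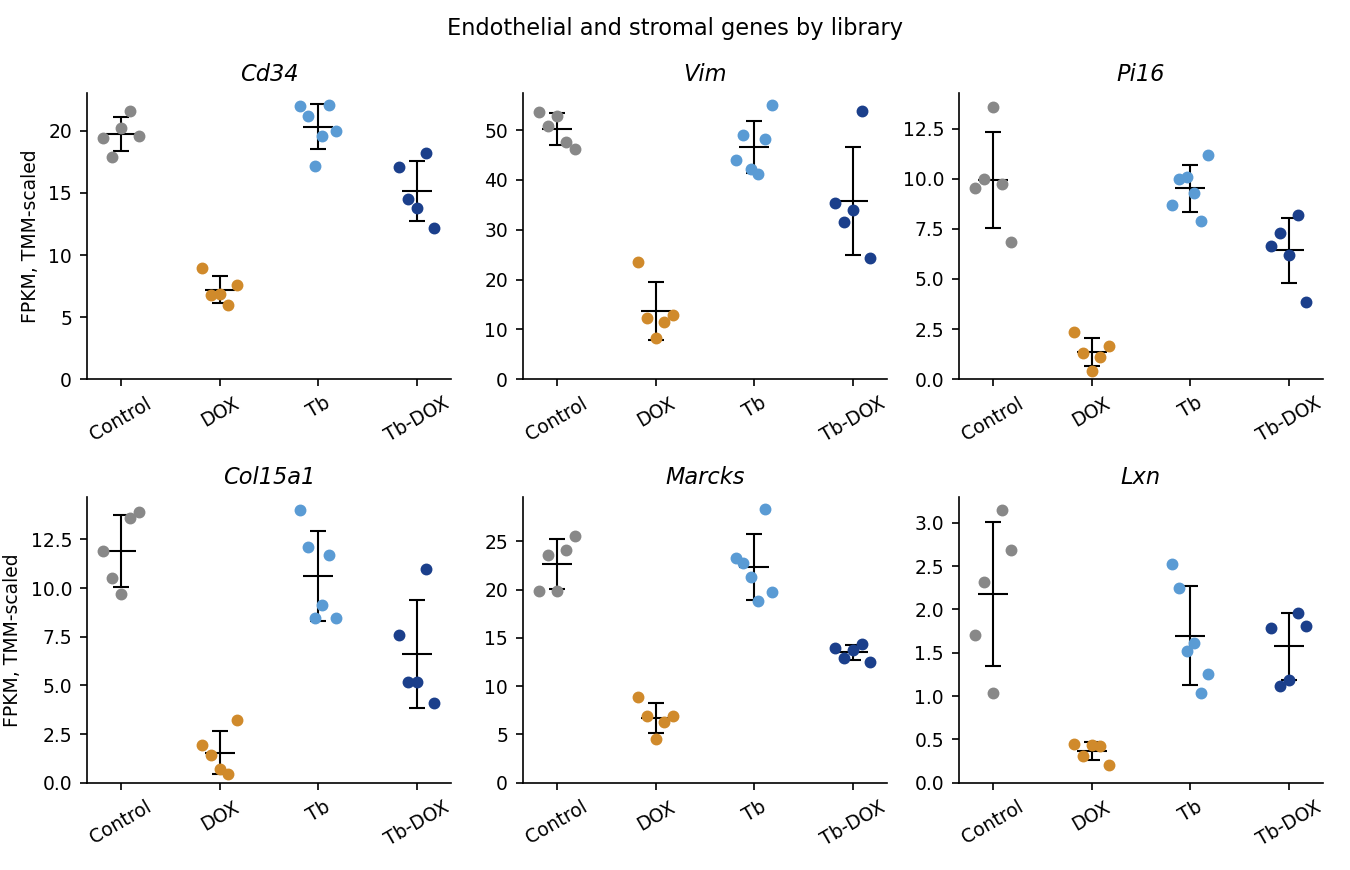
FPKM (TMM-scaled) of 6 endothelial and stromal genes in each library of the 4 groups (points), with the mean and SD of each group (bars). All DOX libraries lie below all libraries of the other groups in every panel, and for Marcks all Tb-DOX libraries also lie below all Control libraries.

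Collagens of the fibrillar and basement membrane kinds are laid down by fibroblasts and by cells of the vessel wall. Of 18 tested, 6 passed higher and 1 lower in Tb-DOX, against 9.3% and 7.76% of all genes tested. Their median log2 fold change was 0.66, against -0.55 for the tumor effect without DOX. The interaction passed as positive for 8 (5 without DOX 3, DOX 4 or Tb-DOX 4), and 8.58% of all genes passed it in either direction. The count of 6 moved between 1 and 10 when single libraries were left out and was 1 without DOX 4, and it was 12 with library totals. Col15a1, a collagen of the capillary basement membrane, was at 1.93, 1.40, 0.724, 0.439 and 3.20 FPKM in DOX and at 7.58, 5.16, 5.19, 11 and 4.08 FPKM in Tb-DOX (log2 2.10, SE 0.356, edgeR adjusted p = 0.000340). It held its call in each fit that left out 1 library. Col3a1, the fibrillar collagen III, rose by log2 1.38 (edgeR adjusted p = 0.0428) with libraries that overlapped, and it averaged 23 FPKM in Control. Col1a1 did not pass (log2 0.76, edgeR adjusted p = 0.0549), nor did Col4a2, the most abundant member (log2 -0.16). The summed level of 8 fibroblast markers overlapped, at 157 to 241 FPKM in DOX and 140 to 194 FPKM in Tb-DOX.

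Of 35 endothelial genes tested, 6 passed higher and 3 lower, against 9.3% and 7.76% of all genes tested (3 and 1 without Tb-DOX 4, and 1 lower in 7 of the 10 fits that left out a library), and the sum of 6 endothelial markers overlapped (102 to 138 FPKM in DOX, 110 to 136 FPKM in Tb-DOX). Vcam1, to which leukocytes adhere, went from 0.857 to 1.67 FPKM to 2.01 to 4.53 FPKM (log2 1.17, edgeR adjusted p = 0.000302). Nrp2, a receptor for semaphorins and VEGF-C, rose by log2 0.81 and Vwf, von Willebrand factor, by 0.83. Aplnr, the apelin receptor, rose by 1.82, and removing single libraries ended its call in 7 of 10 cases. Cxcr4, the receptor for CXCL12, rose by log2 1.19.

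The genes lower in Tb-DOX were of other kinds. Of the 194 lower DEGs, 66 had a mean below 0.5 FPKM in Tb-DOX hearts and so were above the limit for testing only through the DOX libraries. Of all 194, 47.4% were annotated as protein-coding and 38.7% as long noncoding, against 82.7% and 7.90% of all genes tested. In 121 of them (62.4%) the library Tb 5 was the highest of the Tb libraries, against 33.2% of all genes tested, and in 109 (56.2%) DOX 4 was the highest of the DOX libraries, against 22.9%. DOX 4 and Tb 5 also had the lowest mean correlation with their groups (0.959 and 0.935). The number of lower DEGs was 112 without DOX 4, against 243 without DOX 5. With both libraries left out, a choice made after seeing the data, there were 776 DEGs, 177 of them lower, and 304 interaction calls.

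Sarcomere and Z-disc genes carry the force of contraction. Of 27 tested, 9 passed lower and 1 higher, against 7.76% and 9.3% of all genes tested. The median was -0.28, against -0.01 for all genes tested. Csrp3 (muscle LIM protein, a Z-disc stretch sensor) was at 475, 437, 583, 717 and 543 FPKM in DOX and at 263, 282, 311, 248 and 321 FPKM in Tb-DOX hearts. All DOX libraries were above all Tb-DOX libraries, and the latter lay at the level of Control (mean 290 FPKM). The difference was -0.95 on the log2 scale (SE 0.198, edgeR adjusted p = 0.00227), and the interaction was -1.05 (edgeR adjusted p = 0.0264). Among muscle genes outside that list, Nrap, which anchors actin at the intercalated disc, went from 138 to 290 FPKM to 88.6 to 120 FPKM (log2 -1.06). Fhl1, a LIM protein of the stretch response, was at 152 to 260 FPKM in DOX and 48.0 to 75.2 FPKM in Tb-DOX (log2 -1.71, edgeR adjusted p = 0.0254), and Xirp1, of the intercalated disc, fell by 1.88 on the log2 scale. Within the sarcomere list, Synpo2l, of the Z-disc, fell by 1.75 and Myh7, the beta myosin heavy chain of the fetal program, fell by 1.15 (edgeR adjusted p = 0.0375). The count of 9 lower members was 5 to 9 when single libraries were left out (5 without Tb-DOX 1). It was 5 with scaling by library totals, 4 with limma on log2(FPKM + 1) and 11 with voom. The calls of Fhl1, Myh7, Xirp1 and Synpo2l were lost in 3 to 7 of the 10 fits that left out a library. Of 20 natriuretic peptide and fetal program genes tested, 1 passed higher and 4 lower (Myh7, Xirp1, Fhl1 and Csrp3), with a median of -0.52. The same 9.3% and 7.76% of all genes tested apply here. That count of 4 was 1 without DOX 3, Tb-DOX 1 or Tb-DOX 3 and 2 without Tb-DOX 2. It was 6 with voom or with only the 10 libraries. Nppb, which encodes the natriuretic peptide BNP, did not pass (log2 -1.18, SE 0.601, edgeR adjusted p = 0.180), with 171 to 1010 FPKM in DOX and 136 to 645 FPKM in Tb-DOX.

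**Figure D5:**
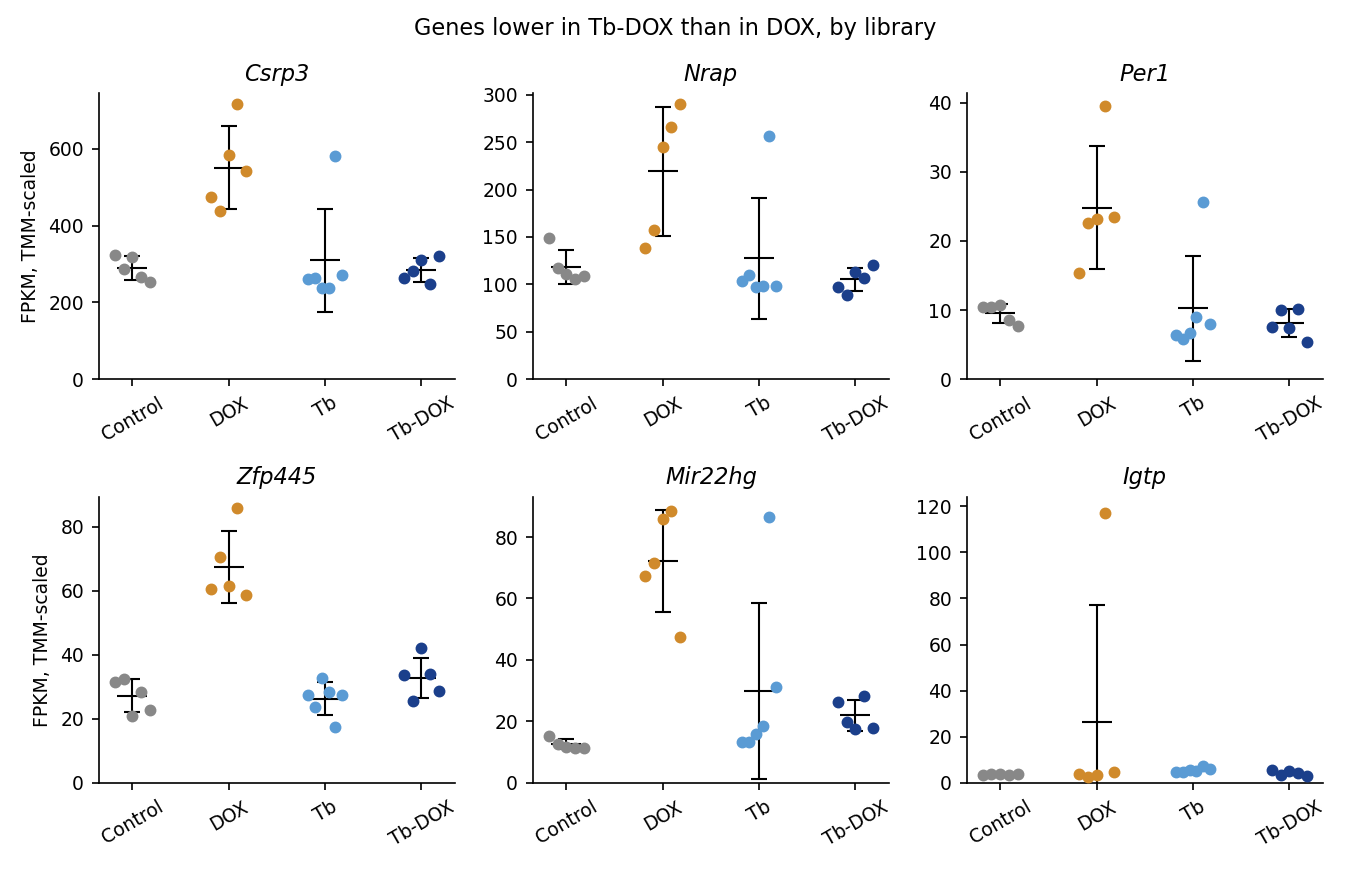
FPKM (TMM-scaled) of 6 genes that were lower in Tb-DOX than in DOX, in each library of the 4 groups (points), with the mean and SD of each group (bars). For Csrp3, Nrap, Per1, Zfp445 and Mir22hg all DOX libraries lie above all Tb-DOX libraries, while for Igtp 1 DOX library (117 FPKM) stands above the rest; 1 Tb library is high for Csrp3, Nrap, Per1 and Mir22hg.

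Some clock genes and a few glucocorticoid-responsive genes were lower. The clock genes form a feedback loop in which PER and CRY proteins repress their own transcription, and glucocorticoids induce Per1, Sgk1 and Klf9. Of 19 clock genes tested, 5 passed lower and 0 higher (median -0.44), against 7.76% and 9.3% of all genes tested. When single libraries were left out, 3 to 6 passed lower (3 without DOX 4, Tb-DOX 4 or Tb-DOX 5). Per1 was at 15.4, 22.6, 23.2, 39.5 and 23.4 FPKM in DOX and at 7.62, 10, 7.38, 10.1 and 5.35 FPKM in Tb-DOX hearts (log2 -1.61, SE 0.330, edgeR adjusted p = 0.00201). The groups did not overlap, and Control averaged 9.56 FPKM. Ciart, a repressor of the loop, fell by 1.77, Cry2 by 0.90, Tef by 0.70 and Rora by 0.47. Of 24 glucocorticoid-responsive genes, 3 passed lower (5 without Tb-DOX 2, 9 with voom) and 1 higher (Lcn2). The count of 3 is to be read against the same 7.76% of all genes tested. Sgk1, a kinase that regulates ion transport, fell by 1.16 and Klf9, a transcription factor, by 0.86. The time of day of tissue collection is not given in the sources used here.

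The lower DEGs with the smallest p and no overlap between libraries were Gpr17, Mir1a-1, Fam102b, Zfp445, Aldh1l1, Gm47140, Zfp777 and Gm15626. Zfp445, a zinc finger protein that maintains imprinting (GRCm39 chr9:122673594-122695071), was at 60.5, 70.7, 61.4, 85.9 and 58.8 FPKM in DOX and at 33.8, 25.4, 42.0, 34.0 and 28.6 FPKM in Tb-DOX (log2 -1.04, edgeR adjusted p = 0.000152), beside 27.1 FPKM in Control and 26.2 FPKM in Tb. Gpr17, a receptor related to nucleotide and leukotriene receptors, fell by 1.48 and Aldh1l1, a folate enzyme, by 1.86. Zfp777, another zinc finger protein, fell by 1.12 and Fam102b by 1.03. The locus Mir1a-1 (GRCm39 chr2:180030841-180030917), from which a muscle microRNA is cut, was at 22.5 to 53.8 FPKM in DOX and 2.90 to 10.8 FPKM in Tb-DOX (log2 -2.43, edgeR adjusted p = 2.26e-05). These libraries are of long RNA, so this value is reads over the precursor locus and no level of the mature microRNA. Gm47140, Gm15626 and Gm28883 are intronic or pseudogene loci, and reads of a pseudogene may belong to its parent gene. Gm28883 had 895 counts in DOX and 1 in Tb-DOX (ratio 1080, 95% interval 194 to 42800), with 0.727 to 124 FPKM across the DOX libraries. Its fitted log2 fold change of -9.43 was -8.21 without DOX 4 and -10.75 without Tb-DOX 4, and with 1 count in a group these are no bounds. Olfr1031 had 218 counts in DOX and 2 in Tb-DOX (ratio 132), mostly from DOX 4 (7.36 FPKM), and Gm47347 had 23 and 0 (at least 9.28-fold lower).

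Other lower genes of known role were Mir22hg, Slc7a1 and Cth. Mir22hg, the host transcript of miR-22, was at 47.4 to 88.6 FPKM in DOX and 17.5 to 28.3 FPKM in Tb-DOX (log2 -1.72, edgeR adjusted p = 0.00427, interaction -2.97). Slc7a1, the arginine transporter, was at 5.77 to 10.5 FPKM and 2.73 to 3.81 FPKM (log2 -1.21). Cth, which makes cysteine, fell by 1.19 with overlapping libraries. Of 24 genes of the ATF4 stress response and amino acid handling, 2 passed lower and 1 higher, against 7.76% and 9.3% of all genes tested. When single libraries were left out, 1 to 3 passed lower and 0 to 2 higher. With library totals 1 passed lower and 4 higher.

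Several calls depended on single libraries, some through the 2-fold limit and others, such as Gm47347 and Olfr1031, through the adjusted p. Among the lower genes, Fam102b lost its call without DOX 1, 3 or 4 or Tb-DOX 1, 3 or 4, Zfp445 without DOX 4 or Tb-DOX 2 or 5, Zfp777 and Gm47347 without DOX 4, Nrap without DOX 4 or 5, and Olfr1031 without Tb-DOX 2. Cth lost it in 6 of 10 such fits, DOX 4 among them. Among the higher genes, Marcks lost its call without DOX 3 or 4 or Tb-DOX 1, 3 or 4, Cxcl16 without DOX 5 or Tb-DOX 4, and Col3a1 in 6 of the 10 fits. Gsdmd, C3, Vcam1 and 6530402F18Rik lost it without Tb-DOX 4. The log2 fold changes of Zfp445 stayed between -1.16 and -0.95 over these fits, and those of Marcks between 0.90 and 1.13. The fold change itself (not its log2) moved by more than a factor of 1.5 without a single library for 23 of the 90 named genes called. Without DOX 3 the log2 fold change was 5.98 for Il1b, 9.52 for Ly6g, 9.58 for Mapk13, 8.7 for Ngp, 6.06 for Retnlg, 8.04 for S100a8, 5.88 for Saa3, 8.3 for Stfa2 and 9.33 for Stfa3. Without DOX 4 it was -1.99 for Gm47140, and Orm1 was at 4.84 without Tb-DOX 4. Counts of list members moved by that factor without some library for 30 of 45 lists, most often without Tb-DOX 4 (18 lists). Of the 90 named genes called, 61 were called in each of the 10 fits, among them S100a9, Ltf, Csf3r, Ngp, Camp, Ly6g, Selplg and Ptprc.

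Some lower calls rested on the single library DOX 4. Igtp, an interferon-induced GTPase, was at 3.91, 2.51, 3.34, 117 and 4.79 FPKM in DOX and at 5.30, 3.52, 5.02, 4.00 and 3.06 FPKM in Tb-DOX hearts. Outside DOX 4 the groups lay at one level. The fitted log2 fold change of -2.65 (edgeR adjusted p = 0.0211) was 0.19 without DOX 4, and the exact permutation p was 0.921 with all libraries. Iigp1 (130 FPKM in DOX 4), Irgm1 (34.2 FPKM) and Gm4841 (24.9 FPKM), of the same family of GTPases, and Gbp3 (15.0 FPKM) had the same library at the top. Without DOX 4 the log2 fold change was 0.04 for Iigp1, 0.92 for Gm4841, -0.31 for Irgm1 and -0.68 for Gbp3, and none of the 4 was called. Of 28 interferon-stimulated genes tested, 7 passed lower and 2 higher, against 7.76% and 9.3% of all genes tested. Without DOX 4, 0 passed lower. The count of 7 was 3 without DOX 3, Tb-DOX 1, Tb-DOX 4 or Tb-DOX 5 and 4 without Tb-DOX 2. Cd3e, a chain of the T cell receptor complex, was at 75.1 FPKM in DOX 4 and 1.08 to 3.43 FPKM in the other DOX libraries, whereas Cd3d and Cd3g, further chains of the same complex, reached no more than 0.0868 and 0.0730 FPKM in any DOX library. Cd3d, below the limit for testing, was higher in Tb-DOX without overlap (0.295 to 1.1 FPKM, 5 counts in DOX and 100 in Tb-DOX). Of 19 T cell and thymocyte list genes below that limit, it was the 1 higher without overlap. Among them 0 were lower without overlap, and the rest overlapped. The Cd3e log2 fold change of -4.06 was -1.12 without DOX 4. The red cell genes Hba-a1 and Alas2 fell by 1.99 and 1.71 with libraries that overlapped, each was no longer called in 6 of 10 cases with a library removed, and Hba-a1 was at 61.0 FPKM in DOX 2 against 1.57 to 33.5 FPKM in the other DOX libraries. The summed erythroid markers were 5.26 to 163 FPKM in DOX, 2.89 to 35 FPKM in Tb-DOX and 257 to 1010 FPKM in Control.

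Of the 13 mitochondrially encoded, 58 nuclear-encoded respiratory chain and 53 cytosolic ribosomal protein genes tested, 0 passed in either direction by edgeR with all 21 libraries in the fit, with medians of -0.36, -0.07 and -0.14. With only the 10 DOX and Tb-DOX libraries in the fit, 4 mitochondrially encoded genes and 1 ribosomal gene passed lower, voom gave 5 mitochondrially encoded, 1 ribosomal and 3 respiratory chain genes lower, and DESeq2 gave 1 of each lower. Without DOX 1, 5 ribosomal genes passed lower, and without DOX 3, 2 respiratory chain genes did. With library totals 3 respiratory chain genes passed higher, and with limma on log2(FPKM + 1) 4 did. The share of counts on mitochondrially encoded genes was 21.3% to 26.9% in DOX and 18.3% to 23.7% in Tb-DOX. Of 37 fatty acid genes 3 passed higher and 2 lower, against 9.3% and 7.76% of all genes tested, and 0 passed higher without Tb-DOX 2 or without Tb-DOX 4. Of 18 p53 targets, which DNA damage by DOX is known to induce, 0 passed higher and 1 lower by edgeR and by DESeq2, 2 passed lower with only the 10 libraries, and 1 passed higher and 3 lower with voom. Of 27 heat shock genes 6 passed lower, against 7.76% of all genes tested. That count was 2 to 6 when single libraries were left out (3 without DOX 4) and 0 with scaling by library totals. Of 36 cell cycle genes only 9 were tested and 0 passed by edgeR, DESeq2 or voom. Of the 27 below the limit for testing, 5 were higher in Tb-DOX without overlap and 0 lower, as a description, beside 12 and 2 of all 185 list and marker genes below that limit and 7.6% and 6.72% of the genes tested. These were Top2a (a topoisomerase that DOX binds, 21 counts in DOX and 152 in Tb-DOX), Kif23 (32 and 203), Cenpe (26 and 121), Bub1b (2 and 44) and Tyms (104 and 258), and Mki67, a marker of cycling cells, had 64 and 456 counts with libraries that overlapped. Ckm and Ckb, the subunits of creatine kinase, did not pass (log2 0.12 and 0.26), nor did Ucp3 (log2 -0.02), a mitochondrial uncoupling protein, and Mfap4 (log2 -0.32), a microfibril protein. Itgb6, an integrin chain of epithelia, was below the limit for testing (0.0448 to 0.476 FPKM in DOX, 0.304 to 0.568 FPKM in Tb-DOX).

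Markers of other cells differed as follows. The summed smooth muscle and pericyte markers were lower without overlap, at 273 to 323 FPKM in DOX and 222 to 257 FPKM in Tb-DOX. The 8 epithelial markers, which 4T1 cells could carry, summed to 0.245 to 1.26 FPKM in DOX and 0.658 to 1.52 FPKM in Tb-DOX and overlapped. The atrial markers overlapped but spread widely in Tb-DOX hearts (164 to 711 FPKM, against 431 to 831 FPKM in DOX), and the cardiomyocyte sum overlapped at 15600 to 20600 and 13500 to 18100 FPKM. The part of these cell types in the changes above was not tested.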

How the data were processed

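Per the labels, total RNA was made into libraries after oligo(dT) selection or rRNA depletion and sequenced as paired ends. The submitters' processing notes name cutadapt, FastQC, HISAT2, HTSeq 0.6.1, DESeq2 1.34.0 and build GRCm39, without their roles. The study's methods describe cutadapt as trimming the reads. The authors deposited 1 table of 56691 genes, in which each library has a column of whole-number counts and a column of FPKM. Whether counting used strand is not given in the sources used here. Groups were taken from the sample titles. Total counts were 13521200 to 17278339 in the 10 DOX and Tb-DOX libraries. Intervals and the limit of 3 counts cover counting error only.

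Genes with a mean deposited FPKM of at least 0.5 over these 10 libraries (13863) were tested on the deposited counts with edgeR 4.0.16 (R 4.3.3) by the quasi-likelihood F test with TMM scaling, all 21 libraries in 1 fit, and Benjamini-Hochberg adjustment over all genes tested. Printed levels are TMM-scaled FPKM. Exact permutation tests were two-sided on log2(FPKM + 0.1), over 252 arrangements. Biotypes came from GENCODE M21 by gene ID (13513 of 13863 matched). Counts were simulated for Tb-DOX against DOX with 200 of 13863 genes changed. Of those changed by 1.5 and by 2 on the log2 scale, 86.7% and 99.0% were called, with 2 false calls. These counts were drawn from the model with the spread that the fit gave each gene, and no library was set apart. They held no change near the 2-fold limit, so the 2 false calls are no measure of false calls in the data.

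The alternatives were the 10 libraries alone, median-ratio scaling, library totals, no filter, a mean FPKM of at least 5, robust moderation, DESeq2 1.42.0, limma 3.58.1 on log2(FPKM + 1), voom with sample quality weights, the replicate number as a block, other thresholds, and each library left out in turn.

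Members and gene lists were chosen with earlier results of these data known. The rule named, per direction, the 8 DEGs with the smallest p whose libraries do not overlap and the 4 with the largest fold and at least 1 FPKM in the higher group, the 5 DEGs with the smallest interaction p, the genes the study names for heart RNA or serum, and of each list the most abundant member and that with the smallest p, of which many are given only as counts. Other genes were chosen after their values were seen. Replicate libraries of a group differed by more than counting error in every pair.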

Additional observations from a re-analysis of the deposited data

Results flagged for a closer look

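Single libraries stood apart from the other 4 of their group in 18 of 244 groups tested. The measure was the gap to the nearest library over the range of the group. Chance alone marks about 1 in 20 groups (12.2) where groups are independent. Many of these genes move together and were picked with their values known, so the counts are a description. DOX 4 accounted for 7 of the 18, with the highest level of Igtp (117 FPKM), Iigp1 (130 FPKM), Irgm1 (34.2 FPKM), Gm4841 (24.9 FPKM), Cd3e (75.1 FPKM), Casp1 (1.52 FPKM) and the T cell marker sum (75.6 FPKM). That sum is nearly all Cd3e, so the 2 are 1 reading. Tb-DOX 5 was lowest for Selplg (1.67 FPKM), Retnlg (74.3 FPKM) and Tkt (3.76 FPKM). Tb-DOX 1 was lowest for Tnp1 (0 FPKM) and the germ cell marker sum (2.72 FPKM). DOX 5 was lowest for Fam102b (7.23 FPKM) and DOX 1 highest for Mfap4 (2.79 FPKM). The others were genes near 0 in the group, with the highest value in DOX 3 for Mapk13 (0.0208 FPKM) and Ly6g (0.0697 FPKM), in Tb-DOX 4 for Gm28883 (0.154 FPKM) and in Tb-DOX 2 for Olfr1031 (0.0619 FPKM).

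The effect of the tumor differed between hearts with and without DOX for 36 named genes. This was read by the interaction term of edgeR (adjusted p below 0.05 and at least 2-fold). Over all genes tested, 3.75% were called by the same rule. Of the 36, 18 were called in each of 22 fits that left out 1 library or both DOX 4 and Tb 5. Many named genes were picked by small p, by large fold or after their values were seen, and these fits share most libraries. The counts are therefore a description. The values here are log2 differences between the tumor effects.

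Among stromal, vessel and macrophage genes the interaction was 1.03 for Cd34, 2.30 for Pi16, 1.49 for Vim, 2.45 for Lxn, 1.03 for Marcks, 2.27 for Col15a1, 1.35 for Col1a1, 1.24 for F13a1, 2.05 for Mfsd7a and 1.42 for 6530402F18Rik. It was 10.74 for Tnp1, a fitted value against a group at 0 that is no bound. The calls of Pi16, Vim, Lxn, Col15a1, Mfsd7a, 6530402F18Rik and Tnp1 were made in all 22 fits, and those of Cd34, Marcks, Col1a1 and F13a1 were lost in 6, 5, 4 and 14.

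Among neutrophil genes it was -4.31 for S100a8, -3.87 for S100a9, -7.53 for Retnlg, -5.73 for Mmp8 and -3.55 for Cxcr2. S100a9 and Retnlg were called in all 22 fits, and S100a8, Mmp8 and Cxcr2 lost the call in 6, 9 and 10. Of the 19 neutrophil list genes 5 passed the interaction, and 8.58% of all genes tested did in either direction. The count of 5 was 0 with voom, 0 with limma on FPKM and 1 with the replicate number as a block. It was 2 without DOX 3 or without DOX 4, and 10 with DESeq2.

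Among muscle and clock genes it was -1.05 for Csrp3, -2.73 for Fhl1, -3.25 for Xirp1, -2.55 for Synpo2l, -1.17 for Nrap, -1.71 for Per1 and -1.14 for Cry2. Fhl1 and Xirp1 were called in all 22 fits, and Nrap, Synpo2l, Csrp3, Per1 and Cry2 lost the call in 11, 10, 3, 2 and 2. The fetal program list, which holds Fhl1, Xirp1 and Csrp3, had 4 negative interactions that passed. That number was 0 with the replicate number as a block, 1 with limma on FPKM and 4 with voom. For the clock list it was 2, and 1, 1 and 2 likewise. Over these fits the value ran from -2.93 to -1.47 for Fhl1, -3.44 to -1.66 for Xirp1, -1.85 to -0.98 for Per1, -1.12 to -0.66 for Csrp3, -2.8 to -1.68 for Synpo2l, -1.3 to -0.77 for Nrap and -1.23 to -0.74 for Cry2, nearest 0 with DOX 4 and Tb 5 both left out except for Synpo2l, where it was without Tb 5. Tb 5 was high among the Tb libraries for several of these genes, and its part in the interaction was not tested beyond these fits.

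For the remaining genes it was -1.32 for Gpr17, -2.34 for Mir1a-1, -1.46 for Aldh1l1, -3.70 for Gm47140, -1.31 for Zfp777, -2.08 for Gm15626, -2.97 for Mir22hg, -1.54 for Slc7a1 and -2.49 for Alas2. Aldh1l1 and Alas2 lost the call in 11 and 12 of the 22 fits, and Gpr17, Mir1a-1, Gm47140, Zfp777, Gm15626, Mir22hg and Slc7a1 were called in all 22. The value of -15.14 for Gm28883 is fitted on 1 count over the Tb-DOX libraries and is no bound, and its call was lost in 2 fits. The values of -7.27 for Gm4841, -3.23 for Iigp1 and -7.59 for Cd3e belong to genes with DOX 4 far above the rest, and their calls were lost in 10, 15 and 3 fits.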

How the results depend on the processing

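The number of DEGs was 625 to 832 when single libraries were left out, with 481 to 589 higher and 112 to 243 lower. It was 153 (115 higher, 38 lower) at a mean FPKM of at least 5, where fewer genes were tested, and 373 (329 higher, 44 lower) with limma on log2(FPKM + 1), which changes the model, input and scaling together. It was 2365 (1289 higher, 1076 lower) without a minimum fold, and 853 were higher without a filter. At an adjusted p under 0.01, 62 were lower. Of the 755 DEGs, 74.3% were higher, against 85.8% with library totals and 88.2% with limma on FPKM, settings that shift the median of all genes to 0.17 and 0.13 (log2). With library totals 693 of the DEGs were shared, and with DOX 4 and Tb 5 both left out, chosen after seeing the data, 649.

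Interaction calls depended more on the setting. They numbered 300 to 716 over single libraries left out (144 to 351 positive, 136 to 372 negative). They were 799 (413 negative) without a filter, 133 (43 positive, 90 negative) at FPKM 5, 221 (158 and 63) with limma on FPKM, 304 (118 negative) without DOX 4 and Tb 5, 1190 (532 and 658) without a minimum fold and 42 (30 and 12) at an adjusted p under 0.01. Library totals gave 420 positive and voom 162 negative. The cause was not tested.

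Counts of passing list members moved by over 1.5 times in 25 of 45 lists with library totals, 24 with limma on FPKM, 23 at FPKM 5, 22 with voom, 15 with only the 10 libraries, 7 with the block and 5 with DESeq2.

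With the replicate number as a block there were 700 DEGs, 679 shared, and 234 interaction calls (136 positive, 98 negative). Same-numbered DOX and Tb-DOX libraries had residual correlations of -0.0397 to 0.184, 1 of 5 DOX libraries correlated best with its own number, and the labels give no pairing, so the samples share only a number.

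Of named genes, 90 were called, 71 to 88 over single libraries left out, 39 at FPKM 5 and 57 with limma on FPKM. Of list members, 86 were called, 61 to 91, 37 and 51 likewise. Signs turned for uncalled Ucp3 (0.15 with library totals, 0.13 with limma on FPKM, 0.21 with voom, and -0.24 to 0.28 over single libraries left out, above 0 in 5 of 10), Col4a2 (0.02 with library totals and 0.02 with limma) and Mfap4 (0.01 with limma, and -0.48 to 0.36 over single libraries left out, the latter without DOX 1). They also turned for Gm4841 (-5.84 to 0.92 over single libraries left out, the latter without DOX 4, and 1.11 with voom), Igtp (-2.94 to 0.19) and Iigp1 (-2.69 to 0.04), again highest without DOX 4, with the same values when Tb 5 was also left out.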

Other observations

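Beta-arrestin 2 and the beta2 adrenergic receptor, which leukocytes also express, were among 5 of 22 adrenergic and angiotensin genes that passed higher (2 lower, 0 without DOX 2, Tb-DOX 1, Tb-DOX 2 or Tb-DOX 4). Of 22 hypoxia and HIF response genes 3 passed higher and 3 lower (5 and 4 with voom). Of 28 antioxidant and glutathione genes 1 passed higher and 2 lower, with a median log2 fold change of -0.11. With library totals 3 of these 28 passed higher and 1 lower, with a median of 0.08. Of 16 listed targets, efflux pumps and reductases of doxorubicin, 0 passed higher and 4 lower by edgeR (2 without DOX 3, Tb-DOX 1, Tb-DOX 3 or Tb-DOX 4), with a median of -0.05. With library totals 2 passed higher and 1 lower, and with only the 10 libraries 1 passed higher and 4 lower. Of 24 muscle atrophy and ubiquitin ligase genes 0 passed higher and 1 lower, and of 26 autophagy and lysosome genes 2 passed higher and 3 lower, with 1 to 4 higher and 0 to 5 lower when single libraries were left out (0 lower without DOX 4) and 5 higher and 0 lower with library totals. These shares can be read against the 9.3% and 7.76% of all genes tested that passed higher and lower.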
